A study of Mus musculus with 6 samples.

Results

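Scavenger receptors and C-type lectin receptors are surface proteins with which macrophages recognise and take up ligands. The mannose receptor CD206, encoded by Mrc1, is a C-type lectin that binds mannose-bearing glycans and recycles between the membrane and endosomes. CD163 takes up complexes of haemoglobin and haptoglobin, stabilin-1 (Stab1) clears modified and matrix proteins, CD36 binds oxidised lipoproteins and fatty acids, and dectin-1 (Clec7a) binds fungal β-glucans. Mrc1 and Cd163 are widely used as markers of alternatively activated (M2-like) macrophages, and in this study CD206 was also the docking site of the nanoparticles (NPs), which carried di-mannose on their surface. The genes described here were chosen by symbol, from 9 symbols of this receptor group. Of these, 5 had a row among the 754 genes measured, namely Mrc1, Cd163, Stab1, Cd36 and Clec7a, while Msr1, Clec10a, Mgl2 and Cd209a were not analysed here.

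Expression was measured on the NanoString nCounter, where barcoded probes hybridised to RNA are counted directly with no amplification step, in F4/80+, CD11b+ peritoneal macrophages sorted from adult C57BL/6J mice that carried peritoneal tumors of the ovarian cancer line ID8. Treatment began 7 weeks after the ID8 cells were injected and consisted of 2 i.p. doses, on day 1 and day 5, of PBS (n = 3) or of NPs with 30 µg of mRNA for mouse IRF5 (IRF5-NPs, n = 3). The paper's methods describe particles that also hold mRNA for the kinase IKKβ, ID8 cells that express VEGF, and another dose and schedule. The labels were followed here, and which account holds for these samples is not stated. The gate did not use CD206, no group that received particles with another mRNA was analysed here, and the labels do not say whether a sample is 1 mouse or a pool.

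The values are normalized counts, scaled by the authors to housekeeping genes. The counts recovered from them summed to between 683472 and 1830318 per sample. PBS replicates 2 and 3 differed by no more than the sampling noise of their counts over all genes (chi-square per degree of freedom 1.07, p = 0.0782), whereas every other pair within a group differed by 7.07 or more. Their log2 values were therefore averaged into 1 sample, so that 2 PBS samples and 3 IRF5-NP samples entered the tests. With so few samples, and no label that ties them to separate animals, p-values measure only the spread between these samples. Both replicates numbered 1 stood apart from the others of their group, by 158 or more in the PBS group and 54.0 or more in the IRF5-NP group on the same scale. Irf5 itself differed little between the groups (log2 fold change -0.032, limma adjusted p = 0.947), and whether its probe binds the codon-optimized mRNA of the particles is not known. The genes of the gate, Adgre1 (F4/80) and Itgam (CD11b), were above background in all 6 samples, as were all 7 macrophage markers measured, to which they belong. By limma 1 of the 7, Mertk, was lower with IRF5-NPs, where 7.03% of the panel were lower.

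Mrc1 was lower after IRF5-NPs in every sample. It had 8936, 2145 and 2094 normalized counts in PBS replicates 1, 2 and 3, and 1667, 840 and 883 in IRF5-NP replicates 1, 2 and 3. The groups did not overlap, and replicate 1 was the highest sample of each group. The PBS samples averaged 5527 ± 4820 (SD, n = 2), and the IRF5-NP samples 1130 ± 465 (SD, n = 3). The log2 fold change was -2.02 (standard error 0.58, 95% interval -3.36 to -0.67), which did not pass the threshold of 0.05 after adjustment over all genes (limma adjusted p = 0.0664). PBS replicate 1 alone set much of this size, since without it the log2 fold change was -0.98 (limma adjusted p = 0.310).

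Cd163 was lower as well. It had 2310, 425 and 423 normalized counts in PBS replicates 1, 2 and 3, and 210, 206 and 210 in IRF5-NP replicates 1, 2 and 3. The IRF5-NP samples were nearly equal, at 209 ± 2.47 (SD, n = 3), and all lay below the lowest PBS sample. Their spread was smaller than the counting error of any one of them, since the value in IRF5-NP replicate 3 rests on 81 counts as recovered from the deposited value (95% Poisson interval 167 to 262 normalized counts, which covers counting error only). The PBS mean was 1367 ± 1334 (SD, n = 2). The log2 fold change of -2.24 (standard error 0.60, 95% interval -3.63 to -0.85) did not pass the threshold (limma adjusted p = 0.0579). Without PBS replicate 1 it was -1.02 (limma adjusted p = 0.0703), and without PBS replicate 2 it was -2.24 and passed (limma adjusted p = 0.0492).

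**Figure D1:**
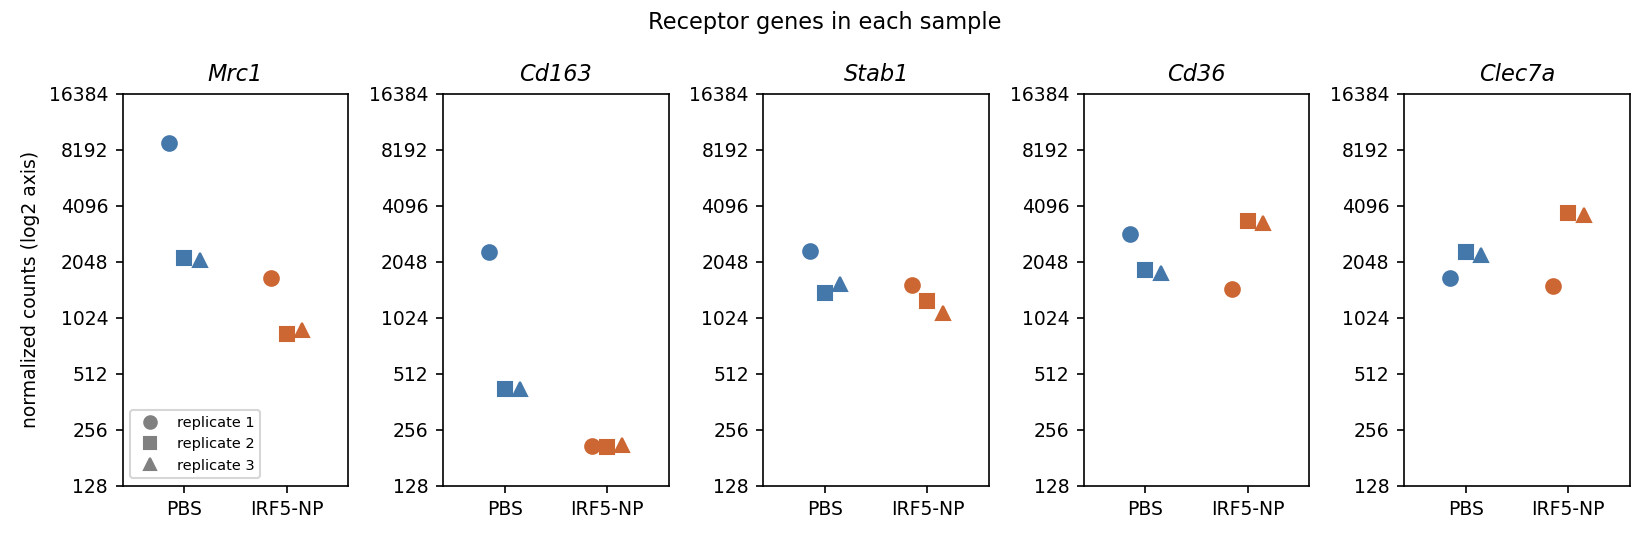
Normalized counts of the 5 receptor genes (vertical axis, log2 scale) in the PBS (blue) and IRF5-NP (orange) samples, with the replicate number given by the symbol and no averaging. Mrc1 and Cd163 lie lower in all 3 IRF5-NP samples than in any PBS sample, whereas the groups overlap for Stab1, Cd36 and Clec7a.

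The upstream sequences of Mrc1 and Cd163 are given because these receptors, alone among the 5, had groups that did not overlap. The 250 bases before the annotated transcript start are from RefSeq on GRCm38.p6, where all 5 genes matched by symbol, and they are printed 5′ to 3′ on the strand of the gene. Capitals mark the core motif of the myeloid factor PU.1 (GAGGAA on either strand, with no overlap of motifs).
Mrc1, chr2:14229164-14229413, plus strand: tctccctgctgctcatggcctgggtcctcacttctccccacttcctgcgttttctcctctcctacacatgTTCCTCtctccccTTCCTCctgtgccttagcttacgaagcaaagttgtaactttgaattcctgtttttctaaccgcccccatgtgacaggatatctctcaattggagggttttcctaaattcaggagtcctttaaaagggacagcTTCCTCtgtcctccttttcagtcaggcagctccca
Cd163, chr6:124304401-124304650, plus strand: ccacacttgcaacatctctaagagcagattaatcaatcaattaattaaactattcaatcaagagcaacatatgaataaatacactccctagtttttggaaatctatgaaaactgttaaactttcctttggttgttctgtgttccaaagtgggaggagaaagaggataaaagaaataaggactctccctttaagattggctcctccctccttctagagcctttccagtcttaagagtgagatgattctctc
The Mrc1 window held 3 matches to this motif, all on the minus strand, and the Cd163 window held 0. Of the 32851 windows of this length in the RefSeq table, 23.3% held at least 1. The AP-1 motif TGANTCA (6.75% of windows), the STAT6-type palindrome (5.85%) and the interferon regulatory factor element (2.98%) were searched on both strands as well, and neither window held any of them. A match is a description of letters and shows no binding.

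The other 3 genes overlapped between the groups. Stab1 had 2322, 1390 and 1542 normalized counts in PBS replicates 1, 2 and 3, and 1541, 1262 and 1078 in IRF5-NP replicates 1, 2 and 3. Its range was narrow, and only IRF5-NP replicate 1 lay among the PBS values. Its log2 fold change was -0.53 (95% interval -1.15 to 0.10, limma adjusted p = 0.283).

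Cd36 had 2896, 1848 and 1769 normalized counts in PBS replicates 1, 2 and 3, and 1455, 3373 and 3290 in IRF5-NP replicates 1, 2 and 3. IRF5-NP replicate 1 was the lowest of all 6 samples and the other IRF5-NP replicates were the highest. The log2 fold change of 0.14 (95% interval -0.80 to 1.09, limma adjusted p = 0.880) averages these opposite values. Clec7a had 1665, 2296 and 2223 normalized counts in PBS replicates 1, 2 and 3, and 1518, 3716 and 3635 in IRF5-NP replicates 1, 2 and 3. Replicate 1 was the lowest sample of each group, and the pooled log2 fold change was 0.50 (95% interval -0.45 to 1.44, limma adjusted p = 0.533). For each of these 3 genes the interval reaches past a 2-fold difference in 1 direction (lower for Stab1, higher for Cd36 and Clec7a), and such a difference is therefore compatible with these samples.

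Taking all 5 receptors, 0 passed the threshold by limma, against 9.55% of the panel (72 of 754 genes), of which 7.03% were lower (53 genes) and 2.52% higher (19 genes). With every sample scaled to a common median, which moved the median of all genes from -0.029 to 0.21, the split was 36 lower and 42 higher, and with quantile normalization 40 lower and 35 higher. Mrc1 and Cd163 were below 0 under both scalings. At an unadjusted p under 0.05 there were 2 of the 5, Mrc1 and Cd163, and 191 of the 754 genes. Mrc1 and Cd163 were 2 of the 5 whose IRF5-NP values all lay below the PBS values, a pattern held by 20.4% of the panel, and 0 of the 5 lay wholly above, against 17.0%. By size, Cd163 had the 24th and Mrc1 the 28th lowest log2 fold change of the 754 genes. In sorted bulk samples, fewer cells that express a gene and less RNA per cell cannot be told apart.

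Since replicate 1 stood apart in both groups, its value was compared with the mean of replicates 2 and 3 on the log2 scale within each group. The deviation of Mrc1 was known when these genes were chosen, so these values are a description without a test. In Mrc1, replicate 1 was higher by 2.08 with PBS (4.21-fold) and by 0.95 with IRF5-NPs (1.93-fold). By a limit of 1 or more, Mrc1 and Cd163 were higher in the PBS group, as were 6.23% of the panel, and 0 of the 5 receptors were higher in the IRF5-NP group (2.12% of the panel) or in both (0.398%). Mrc1 lay just under that limit with IRF5-NPs, and by a limit of 0.9, chosen after its values were seen, 0.531% of the panel were higher in both groups, namely Mrc1, Atf3, Il1r2 and S100a9. Counting any difference above 0 in both groups, as in 20.2% of the panel, Stab1 shared the direction with 0.66 and 0.40. Cd163 met this count as well, higher by 2.44 with PBS (5.44-fold) and by 0.014 with IRF5-NPs, the latter less than the counting error of its values. A PBS difference of 2 or more, as in Mrc1 and Cd163, was found in 1.33% of the panel. Cd163 and Cxcl3, which encodes a chemokine for neutrophils, were the only panel genes that were higher by 2 or more with PBS and within 0.1 of the other replicates with IRF5-NPs (0.265%). In IRF5-NP replicate 3, Cxcl3 lay at 70.2 normalized counts, below the background of that sample (79.4).

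Clec7a deviated the other way in both groups, with log2 differences of -0.44 under PBS and -1.27 under IRF5-NPs, a direction shared by 29.2% of the panel, and 1.33% were lower by 1 or more in both groups, Clec7a not among them. Cd36 went in opposite directions, with 0.68 under PBS and -1.19 under IRF5-NPs, as did 36.3% of the panel.

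**Figure D2:**
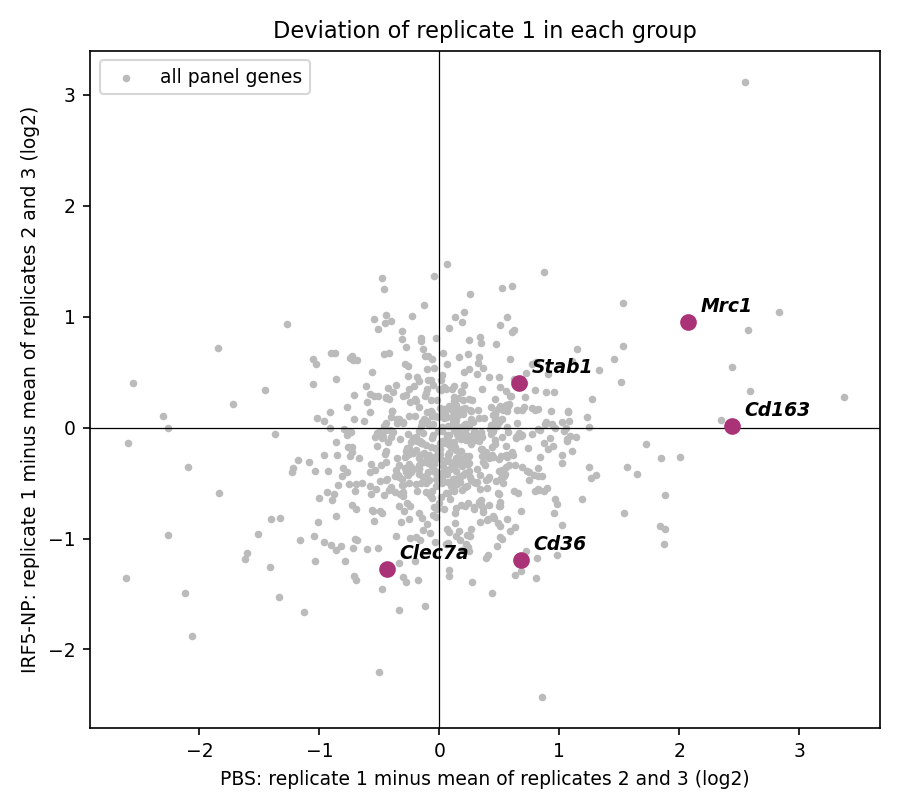
Deviation of replicate 1 from the mean of replicates 2 and 3 in the PBS group (horizontal axis) and the IRF5-NP group (vertical axis), both as log2 differences, for all 754 panel genes (grey) and the 5 receptor genes (purple). Mrc1 and Stab1 lie in the upper right, Cd163 at the right near 0 on the vertical axis, Cd36 in the lower right and Clec7a in the lower left.

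The treatment difference was then taken separately within the samples numbered 1 and within those numbered 2 and 3. Mrc1 was lower in both, 5.36-fold between the replicates numbered 1 (log2 difference -2.42) and 2.46-fold between the others (-1.30). Cd163 was 10.9-fold lower between the replicates numbered 1 (-3.45) and 2.03-fold lower between the others (-1.02). Stab1 was lower in both by a small margin, with log2 differences of -0.59 and -0.33. In contrast, Cd36 was -0.99 between the replicates numbered 1 and 0.88 between the others, and Clec7a was -0.13 and 0.70. The first of these comparisons has 1 sample per group and the second has 1 PBS sample counted, so that neither was tested on its own. With the samples numbered 1 against the others as a term in the limma model, the log2 fold change was -1.78 for Mrc1 and -2.06 for Cd163. That term takes up the deviation of replicate 1, which was known when the genes were chosen, and its p-values are therefore no independent support for a difference.

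**Figure D3:**
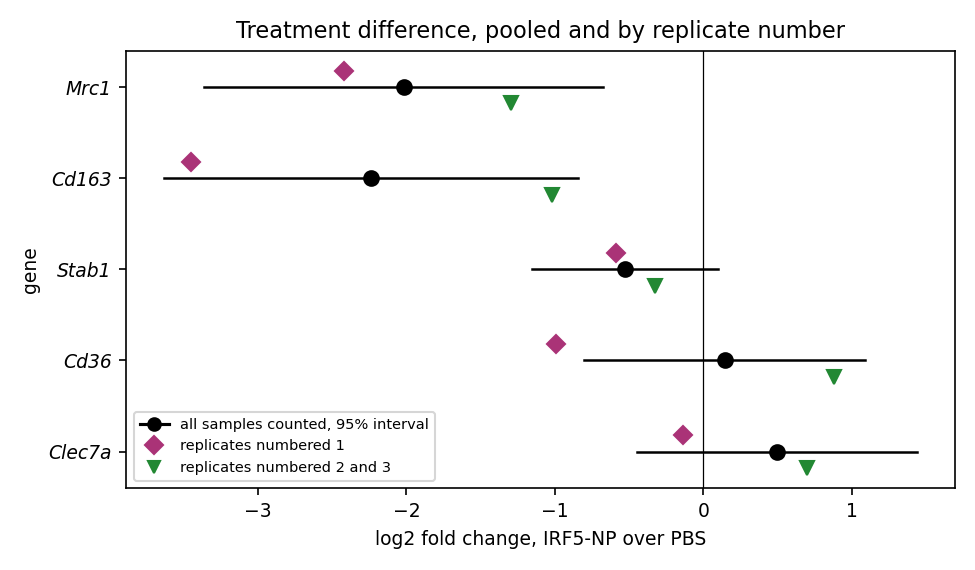
Log2 fold change of IRF5-NP over PBS for the 5 receptor genes, with all samples counted (black circles, bars are 95% intervals of the limma model), between the replicates numbered 1 (purple diamonds) and between those numbered 2 and 3 (green triangles). Both values lie below 0 for Mrc1, Cd163 and Stab1, and they lie on opposite sides of 0 for Cd36 and Clec7a.

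Genes with a pattern like those of Mrc1 and Cd163 were searched among the 560 genes with a mean above background. The measure was the root mean square difference of their log2 values over the 5 samples counted, each gene centred on its own mean. A gene found in this way is lower with IRF5-NPs and high in PBS replicate 1 by the choice itself. The tests of such genes are therefore no separate support for a difference. Nearest to Mrc1 were Amica1, an adhesion molecule of leukocytes (difference 0.23), the stress-induced transcription factor Atf3 (0.28), the gelatinase Mmp9 (0.31), the AP-1 subunit Jun (0.31) and the alarmin S100a8 (0.33), where the median gene differed by 1.23. In IRF5-NP replicate 3, Amica1 (33.8 normalized counts) and Mmp9 (59.8) lay below the background of that sample (79.4). Atf3, the 2nd nearest, had 5028, 1776 and 1691 normalized counts in PBS replicates 1, 2 and 3, and 958, 484 and 398 in IRF5-NP replicates 1, 2 and 3. It was high in replicate 1 of each group, as Mrc1 was. Atf3 (log2 fold change -2.37, limma adjusted p = 0.0293) and Jun (-1.70, limma adjusted p = 0.0429) were lower past the threshold. Neither passed when PBS replicate 1 (-1.60 and -0.94) or IRF5-NP replicate 3 (-2.11 and -1.64) was left out, and Jun also not when IRF5-NP replicate 1 (-1.83) or 2 (-1.62) was, or with a common median over all genes (limma adjusted p = 0.0664).

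Nearest to Cd163 were the chemokines Cxcl2 (0.18) and Cxcl3 (0.19), Amica1 (0.20), the NF-κB feedback inhibitor Tnfaip3 (0.24) and the chemokine Ccl8 (0.28), where the median gene differed by 1.32. Cxcl3 and Amica1 lay below background in IRF5-NP replicate 3. Cxcl2 had 3906, 930 and 1011 normalized counts in PBS replicates 1, 2 and 3, and 379, 431 and 481 in IRF5-NP replicates 1, 2 and 3. As in Cd163, PBS replicate 1 was high and the IRF5-NP replicates lay close together. Cxcl2, Tnfaip3 and Ccl8 were lower past the threshold, with log2 fold changes of -2.18, -2.38 and -2.61 (limma adjusted p = 0.0363, 0.0168 and 0.0158), and none of them passed when IRF5-NP replicate 1 (-2.09, -2.33 and -2.52) or 3 (-2.27, -2.42 and -2.69) was left out. Cxcl2 also missed it with a common median over all genes (limma adjusted p = 0.0517). Mrc1 and Cd163 differed from each other by 0.38, which placed Cd163 7th in the order around Mrc1 and Mrc1 6th in the order around Cd163. Outside the rule for naming genes, and chosen after the values were seen, the nearest gene to Clec7a was Itgam (0.071), the gene of the CD11b gate, and the nearest to Cd36 was the cytokine Osm (0.086).

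Further receptors of the panel were taken from lists, which also count receptors described above. These are Stab1, Cd36 and Cd163 among the scavenger receptors, Mrc1 and Clec7a among the C-type lectins, and Stab1 among the phagocytic receptors. Among the scavenger receptors, 7 of 19 listed genes had values, all above background in every sample, with a median log2 fold change of -0.025, where the median of all 754 genes was -0.029. By limma, 1 of them was lower and 0 were higher, beside 7.03% and 2.52% of the panel. The gene called was Cxcl16, which acts as a scavenger receptor for oxidised lipoprotein and, once shed, as a chemokine. Cxcl16 had 3724, 3391 and 3364 normalized counts in PBS replicates 1, 2 and 3, and 1364, 1929 and 1884 in IRF5-NP replicates 1, 2 and 3. The groups did not overlap, and by limma the log2 fold change was -1.06 with an adjusted p of 0.0326 (standard error 0.23). The call was lost when PBS replicate 1 (-0.99) or either of the IRF5-NP replicates 2 and 3 (-1.14 and -1.13) was left out, and with a common median over all genes (limma adjusted p = 0.0659).

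Marco, a receptor for bacteria and particles, had 4085, 5218 and 5087 normalized counts in PBS replicates 1, 2 and 3, and 5199, 16556 and 15947 in IRF5-NP replicates 1, 2 and 3. IRF5-NP replicate 1 lay within the PBS range and the other IRF5-NP samples lay far above it, and the log2 fold change was 1.28 (limma adjusted p = 0.160). Olr1, a receptor for oxidised lipoprotein, was lowest in PBS replicate 1 at 292 normalized counts, and its log2 fold change was 0.79 (limma adjusted p = 0.507). Cd68, a lysosomal glycoprotein of macrophages, was at -0.025 (limma adjusted p = 0.973).

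Among the C-type lectin receptors, 7 of 32 listed genes had values, of which 3 were above background in every sample and 1 was below it in every sample. None passed the threshold by limma, where 9.55% of the panel did, and the median log2 fold change was -0.31. The members with the highest mean values were Mrc1, Clec7a and Clec5a, a myeloid activating receptor, at -0.60 (limma adjusted p = 0.208). Clec5a was lowest in IRF5-NP replicate 1, at 276 normalized counts, lay at 408 and 442 in the other IRF5-NP samples and between 501 and 633 with PBS, without overlap. Of the list around CD163 and haemoglobin handling, Il10 alone of 11 genes had values (log2 fold change -1.60, limma adjusted p = 0.0647), and it was not above background in every sample.

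Of 16 listed phagocytic receptors, Stab1 among them, 14 had values, with a median log2 fold change of -0.25. By limma 1 was higher and 1 lower, where 2.52% of the panel were higher and 7.03% lower. Timd4, a phosphatidylserine receptor of resident peritoneal macrophages, was higher (2.48, limma adjusted p = 0.0155). Mertk, a kinase receptor for the uptake of apoptotic cells, had 1833, 1179 and 1107 normalized counts in PBS replicates 1, 2 and 3, and 597, 616 and 642 in IRF5-NP replicates 1, 2 and 3. Like Cd163, it was high in PBS replicate 1 and nearly equal in the IRF5-NP samples, and by limma its log2 fold change was -1.23 with an adjusted p of 0.0218 (standard error 0.24). Mertk lost the call when PBS replicate 1 (-0.89) or any of the IRF5-NP replicates 1, 2 and 3 (-1.20, -1.22 and -1.25) was left out, and Timd4 when PBS replicate 1 (2.14) or IRF5-NP replicate 3 (2.23) was.

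**Figure D4:**
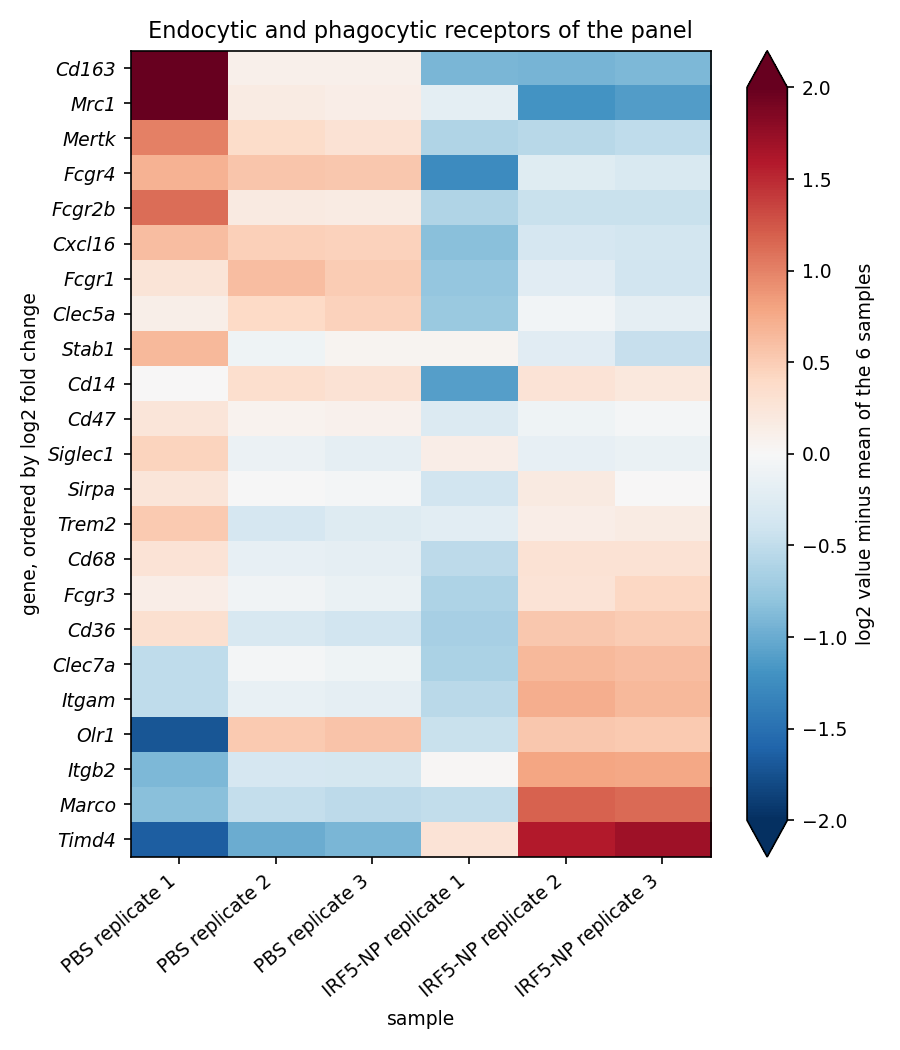
Log2 normalized counts of 23 endocytic and phagocytic receptor genes that were above background in all 6 samples, each minus its own mean over the 6 samples (color, from -2 to 2), ordered from the lowest to the highest log2 fold change. Cd163 and Mrc1 stand at the top and are highest in PBS replicate 1, and Marco and Timd4 stand at the bottom and are highest in IRF5-NP replicates 2 and 3.

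Mrc1 is a target of interleukin-4 signalling through STAT6. Of 23 genes listed for this response, 19 had values, of which 12 were above background in every sample and 2 below it in every sample. The median log2 fold change was -0.42, and 13 of the 19 were below 0. By limma 2 were lower (the chitinase-like genes Chil3 and Chil4, at -5.23 and -5.32) and 0 higher, beside 7.03% and 2.52% of the panel. In both genes, replicate 1 was the lowest PBS sample and the highest IRF5-NP sample. Il4ra, the receptor chain for interleukin-4, had 4378, 2700 and 2636 normalized counts in PBS replicates 1, 2 and 3, and 1892, 1660 and 1476 in IRF5-NP replicates 1, 2 and 3. Its replicate 1 was the highest sample of each group, as for Mrc1. The groups did not overlap, but the difference of -1.03 missed the threshold (limma adjusted p = 0.0503). Replicate 1 was also the highest of each group in Klf4 (-0.89, limma adjusted p = 0.245, with overlap) and Ccl22 (-1.40, limma adjusted p = 0.142, without overlap). Ccl22 was not above background in every sample. Stat6, the transcription factor of this pathway, was at -0.055 (limma adjusted p = 0.917), and Arg1, the arginase of alternatively activated macrophages, at -0.47 (limma adjusted p = 0.635). Other members of the list went the other way. Alox15 was at 1.61 (limma adjusted p = 0.0881), with every IRF5-NP sample above every PBS sample. Ccl24 was at 0.90 (limma adjusted p = 0.387), with overlap.

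Markers of other cells were set beside these values. Beside the counts by limma in these lists, 2.52% of the panel were higher and 7.03% lower. The 4 measured markers of resident large peritoneal macrophages (Timd4, Gata6, Selp and Alox15) had a summed level of 4525, 14280 and 14062 in the PBS replicates 1, 2 and 3, and of 18311, 31683 and 30831 in IRF5-NP replicates 1, 2 and 3, and by limma 2 of the 4, Timd4 and Selp, were higher. The larger part of this sum was Alox15 in every sample, a lipoxygenase that interleukin-4 also induces and that did not pass the threshold itself (limma adjusted p = 0.0881). Over the 5 samples counted, the sum ran in the opposite order to Mrc1. The order of IRF5-NP replicates 2 and 3 in Mrc1 lay within counting error (95% Poisson intervals 781 to 902 and 792 to 983 normalized counts). How many panel genes share this order was not counted. The sum was lowest in PBS replicate 1, where Mrc1 and Cd163 were highest. The sum over 8 neutrophil genes was 6658 in PBS replicate 1, from 2168 to 2187 in the other PBS samples, and from 1581 to 2528 with IRF5-NPs. It was carried by S100a8 and S100a9, which monocytes also express, whereas Ly6g lay between 22.5 and 44.2 normalized counts, and 2 of the 8, Mpo and Camp, were below background in every sample. By limma 1 of the 8, Csf3r, was higher.

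The 7 monocyte genes summed to between 22165 and 30359 with PBS and between 6066 and 6585 with IRF5-NPs. Most of the difference between these sums was Chil3, at 17089 to 23631 normalized counts with PBS and 390 to 822 with IRF5-NPs. The sums are therefore no measure of the rest of the list. By limma 2 of the 7, Chil3 and Itgax, were lower, and 5 of the 7 were below 0 (median log2 fold change -0.69). Ccr2 was at -0.13 (limma adjusted p = 0.828). The 6 dendritic cell genes summed to between 389 and 433 with PBS and between 178 and 231 with IRF5-NPs, and 0 of them were above background in every sample, while 1, Itgax, was lower by limma. The sums of the 9 eosinophil and mast cell genes (176 to 231) and of the 3 lymphocyte genes (61.0 to 143) were low in all 6 samples, with Cpa3 and Ms4a1 higher by limma. In both groups the sum of the resident markers and that of the monocyte genes was lowest in replicate 1, and the sum of the neutrophil genes was highest there. Not all members of the monocyte list followed its sum. Ccr2 was highest in replicate 1 of each group (1450 normalized counts with PBS and 1593 with IRF5-NPs), and Chil3 was highest in replicate 1 with IRF5-NPs. The part of such cells in the values of Mrc1, Cd163 and the other receptors was not tested.

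**Figure D5:**
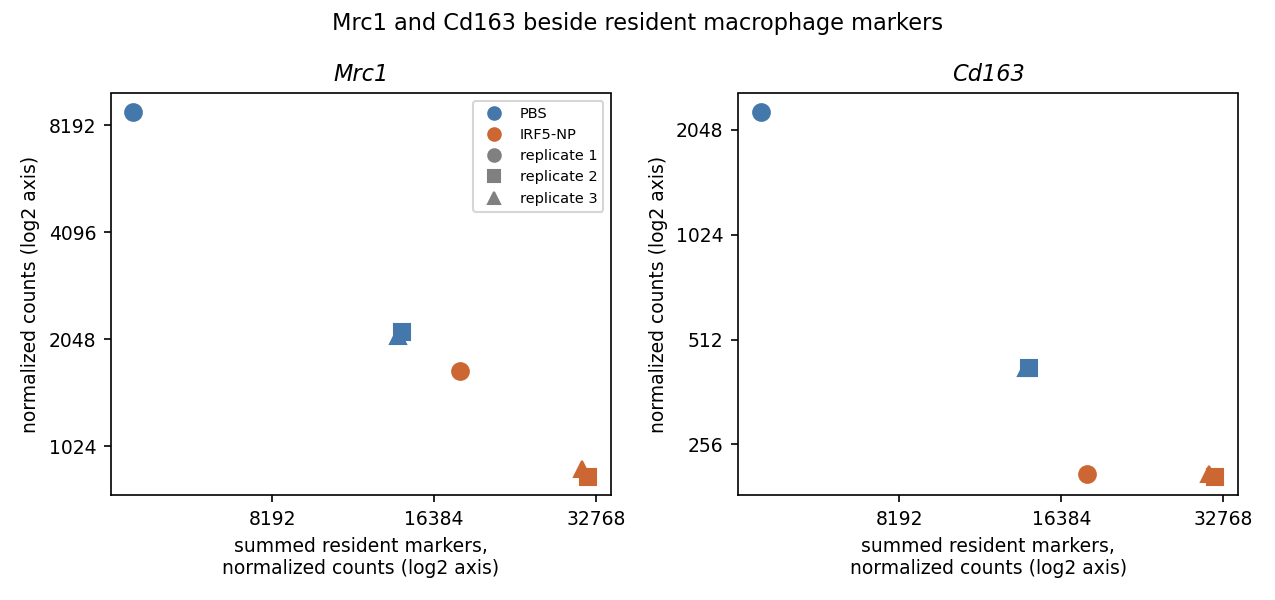
Normalized counts of Mrc1 (left) and Cd163 (right) on the vertical axis against the summed normalized counts of Timd4, Gata6, Selp and Alox15 on the horizontal axis (both log2 scales), with 1 point per sample, PBS in blue and IRF5-NP in orange. Mrc1 runs from 8936 at a sum of 4525 to 840 at a sum of 31683, lower at each higher sum except between PBS replicates 2 and 3. These lie close together, and the Mrc1 values of IRF5-NP replicates 2 and 3 lie within counting error of each other. Cd163 stays between 206 and 210 in the IRF5-NP samples.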

How the data were processed

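The deposited values are a normalized signal, nCounter counts to which the authors applied NanoStringQCPro and then nSolver's scaling by the housekeeping geometric mean (stated for their cultured macrophages). The values are on a linear scale, for 754 genes, with 8 negative and 6 positive control probes as raw counts. No genome build is involved. In each sample, 1 factor divided all 754 gene values into whole numbers (tolerance 0.01), and these were taken as its counts. The IRF5-NP counts rest on this search alone, since a recovery from the steps between low values gave whole counts for the PBS samples only. Background was the mean plus 2 SD of the negative controls times this factor, and lay between 25.6 and 79.4 normalized counts.

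Groups came from the sample titles. Values were compared as log2(value + 1) with limma 3.58.1 in R 4.3.3 (lmFit, eBayes with a mean-variance trend), two-sided, at a Benjamini-Hochberg threshold of 0.05 across the 754 genes with no filter. Fold changes are on this scale, which understates changes of low genes. The fit was tested on simulated data with the same small spread in every gene and no deviating replicate. That test cannot show how the fit handles the deviation of replicate 1. Genes named are the 9 symbols, the 5 nearest patterns to Mrc1 and to Cd163, and list members that passed or, in lists where none passed, had the highest means. Further members of the lists were named after their values were seen, as were Il1r2 and S100a9. The receptors, the lists and the count of PBS replicates 2 and 3 as 1 sample were chosen with earlier results of these data known. Ikbkb, the second delivered gene of the paper, and the tumor and mesothelial markers were not analysed here. Plots were made in matplotlib 3.10.9.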

Additional observations from a re-analysis of the deposited data

Results flagged for a closer look

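Of the 5 receptor genes, Cd36 was the one whose replicate 1 lay above both other replicates in the PBS group (0.68 on the log2 scale) and below both in the IRF5-NP group (-1.19). The pattern is not particular to Cd36, since 36.3% of the panel had replicate 1 above the mean of the others with PBS and below it with IRF5-NPs. The difference between these values was not tested.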

How the results depend on the processing

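Of the 5 receptor genes, 0 passed under the analysis given here, and Mrc1, Cd163, Stab1 and Clec7a kept their direction under all 17 alternatives. Cd36 lay between -0.065 and 0.54 with each sample left out in turn, and was below 0 when IRF5-NP replicate 2 (-0.065) or 3 (-0.047) was left out. The replicate numbers were not taken to pair the samples. Across 560 genes, the correlation of deviations from the group means was 0.222, 0.246 and 0.0957 for numbers 1, 2 and 3. PBS replicate 3 correlated best with IRF5-NP replicate 2 (0.213). Since PBS replicates 2 and 3 did not differ beyond sampling noise, these values cannot decide whether the numbers pair the samples. With the numbers as a replicate block in 6 separate samples, Mrc1 (-1.67, limma adjusted p = 0.00819) and Cd163 (-1.83, limma adjusted p = 0.0476) passed. The block gave 2 receptor genes, 135 panel genes, 14 receptor list genes and 16 marker genes, against 0, 72, 5 and 8 otherwise. With number 1 against the others as a term, Mrc1 was at -1.78 and Cd163 at -2.06, with 2 receptor genes, 133 panel genes, 13 receptor list genes and 15 marker genes. Both terms take up the deviation of replicate 1, known when the genes were chosen, and these calls are no independent support.

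With each sample left out in turn, Mrc1 lay between -2.34 and -0.98 and Cd163 between -2.24 and -1.02, with 0 to 1 receptor genes, 21 to 83 panel genes, 2 to 7 receptor list genes and 2 to 8 marker genes. Leaving out IRF5-NP replicate 3 gave 21 panel, 2 receptor list and 2 marker genes, PBS replicate 1 gave 35, 2 and 2, and IRF5-NP replicate 2 gave 41, 3 and 3. Cd163 passed when PBS replicate 2 was left out (-2.24). With 6 separate samples, 121 panel genes and 9 receptor list genes passed. The panel count was 0 with the methods' t-test (125 genes unadjusted, where limma gave 191). It was 21 with Benjamini-Yekutieli adjustment, 41 without the trend and 25 with background subtracted. Cxcl16, Mertk, Timd4, Atf3, Jun, Cxcl2, Tnfaip3 and Ccl8 missed the threshold with the t-test, the Benjamini-Yekutieli adjustment and background subtracted. Without the trend, Cxcl16, Mertk, Atf3, Jun and Cxcl2 missed it, and with quantile normalization Atf3, Jun and Cxcl2. Chil3 and Chil4 missed it only with the t-test. A common median over all genes gave 42 higher and 36 lower genes, and quantile normalization 35 and 40, against 19 and 53. Leaving out PBS replicate 1 or an IRF5-NP replicate gives fewer degrees of freedom. Without PBS replicate 2 or 3 there are still 5 samples counted. For the other changes the cause was not tested. The 2 planned tests on recovered counts were not run, since a second way of recovering counts, from the steps between low values, gave whole counts for the PBS samples and not for the IRF5-NP samples. Depth was lowest in IRF5-NP replicate 3, whose background of 79.4 normalized counts limits low genes.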
